A study of Mus musculus with 4 samples.

Results

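The genes described here are 8 components of the extrinsic cell death pathway and its caspases: the death receptor Fas, the adaptors Fadd and Tradd, the kinase Ripk1, the caspase-8 regulator Cflar (c-FLIP), the initiator caspases Casp8 and Casp9, and the effector caspase Casp6. They were taken by symbol, after mapping the identifiers of the TPM table to GENCODE names on GRCm38, and all 8 were found among its 34866 genes. The libraries came from λ-MYC Tom+/ki mice, which carry λ-MYC+/TG, a knock-in Cre allele and R26tdTom+/ki. In this strain a translocated human MYC gene is driven by Igλ regulatory sequences, and Cre, active in B cells that have entered antibody diversification, switches on Tomato (Tom) permanently, so that Tom+ cells are those in which Cre has acted and Tom- cells are those in which the switch did not occur. B220+ IgM+ cells from the spleens of 2 sick mice, whose tumors (#1 and #2) held IgM+ Tom+ cells, were sorted into a Tom- and a Tom+ fraction, which gave 4 RNA-seq libraries, 2 per group. All 4 share the transgene, the reporter and the sort gate, the age of the mice was not used here, and 1 mouse stands behind each tumor, so tumor, mouse and handling of the mouse cannot be told apart.

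Death receptors of the TNF receptor family carry a death domain in the cytoplasm. Ligand binding to Fas recruits FADD, which in turn binds procaspase-8, and caspase-8 brought together in this way cleaves itself and then the effector caspases. TNF receptors use TRADD and RIPK1 first, and the outcome, survival signaling or death, depends in part on c-FLIP, a caspase-8 relative that competes for FADD. Caspase-9 starts the parallel mitochondrial route on a scaffold of Apaf1, and both routes meet at the effector caspases. In B cells Fas is best known as a germinal center marker and as a brake on activated and self-reactive cells.

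The 8 genes lie on 7 chromosomes of GRCm38, and all are annotated as protein coding. Cflar (chr1:58711508-58758884, plus strand) and Casp8 (chr1:58795374-58847503, plus strand) are neighbors, 36.5 kb apart with 1 annotated gene between them, Gm3841. The others are Casp6 at chr3:129901425-129914103, Casp9 at chr4:141793612-141815976, Ripk1 at chr13:34002363-34037147 and Fas at chr19:34290666-34327772, all on the plus strand, and Fadd at chr7:144577318-144582463 and Tradd at chr8:105258286-105264609 on the minus strand. TPM were given per gene, so the 13 annotated transcripts of Cflar, 4 of them coding, were counted together and the long and short forms of c-FLIP were not separated.

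Upstream sequence was read from RefSeq promoters (GRCm38.p6) for 7 of the 8 genes, all but Tradd, as the 250 bases before the annotated start. The 3 windows below are shown because they belong to the gene with the lowest level in these libraries (Fas), the gene with the highest (Casp8) and the gene whose difference between tumors was largest against its error (Cflar). Capitals mark, on either strand, the E-box CACGTG (the motif bound by MYC and MAX), the GC box GGGCGG (bound by Sp1) and TATAAA.
Fas, chr19:34290409-34290658, plus strand: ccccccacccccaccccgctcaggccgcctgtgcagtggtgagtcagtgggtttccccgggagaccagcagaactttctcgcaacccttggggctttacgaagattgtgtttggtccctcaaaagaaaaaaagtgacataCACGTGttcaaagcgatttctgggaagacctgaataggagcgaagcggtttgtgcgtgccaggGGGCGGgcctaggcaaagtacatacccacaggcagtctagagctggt
Cflar, chr1:58711241-58711490, plus strand: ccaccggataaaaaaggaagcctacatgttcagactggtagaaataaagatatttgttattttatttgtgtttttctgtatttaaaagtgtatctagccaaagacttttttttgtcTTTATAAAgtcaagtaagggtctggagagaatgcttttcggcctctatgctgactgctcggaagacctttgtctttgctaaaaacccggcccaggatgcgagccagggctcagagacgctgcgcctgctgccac
Casp8, chr1:58802252-58802501, plus strand: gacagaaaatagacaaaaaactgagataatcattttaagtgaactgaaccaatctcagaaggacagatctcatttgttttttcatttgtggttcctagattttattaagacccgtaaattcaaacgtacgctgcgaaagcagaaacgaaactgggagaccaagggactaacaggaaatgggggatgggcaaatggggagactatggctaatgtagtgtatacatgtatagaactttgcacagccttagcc
The Fas window held 1 E-box and 1 GC box, the Cflar window held overlapping TATAAA matches on both strands, and the Casp8 window held none of these. The RefSeq start used for Casp8 lies inside the GENCODE gene, downstream of its first annotated base. Over the 7 genes, Fas alone had the E-box, which 6.02% of 32851 RefSeq promoter windows of this length hold, and Cflar alone had TATAAA (12.4% of all windows). The GC box was found in 5 of the 7 genes, and a broad κB motif, GGGNNNNNCC, in 4 of the 7. Matches were counted on either strand and without regard to overlap with the other motifs. Ripk1 had more than 1 window, which gave 8 windows in all. By window, the GC box was in 6 of 8 (32.7% of all windows) and the κB motif in 4 of 8 (45.8%). The windows of Casp8 and Cflar were the poorest in G and C, at 39.6% and 42.8%, below the median of 52.4% over all windows. Such matches describe the letters in these windows only.

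B cell identity was clear in all 4 libraries: the 7 B cell markers, with Cd79a, Cd79b, Ms4a1 and Pax5 among them, were all at 1 TPM or more and summed to between 2205 and 5585 TPM. Markers of other cells summed to at most 8.27 TPM for T cells, 0.978 for NK cells, 13.35 for myeloid cells and 2.46 for dendritic cells. Erythroid markers summed to 17.6 or more TPM in the libraries of tumor #1 and to 0.967 or less in those of tumor #2, and the stromal and endothelial list was almost wholly Pecam1 (14.2 to 49.7 TPM), with Cdh5, Col1a1 and Col1a2 under 1 TPM throughout. Of the germinal center markers, Bcl6 and Gcsam were under 1 TPM in every library, S1pr2 reached 1.11 and 2.05 TPM in tumor #1 only, and Mybl1 ranged from 1.35 to 2.53 TPM. The plasma cell markers stood at 30.2 to 34.7 TPM in 3 libraries and at 260 TPM in Tom+ cells of tumor #2. In that library 208.7 TPM of the sum came from Jchain, which was at or under 1.72 TPM in the other 3. The other plasma cell markers were also higher there than in Tom- cells of the same tumor. Prdm1 was at 0.570 against 0.105 TPM, Sdc1 at 0.428 against 0, Xbp1 at 21.2 against 18.7 and Irf4 at 29.4 against 14.6. Prdm1, Xbp1 and Irf4 were at their highest in that library, while Sdc1 was below its 1.95 and 1.78 TPM in tumor #1. Mitochondrial genes took 6.61% and 8.67% of TPM in the libraries of tumor #1 but 14.45% and 15.6% in those of tumor #2. Because TPM keeps no read totals, the depth of the libraries is unknown and no counting interval can be given.

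The receptor Fas was the least abundant of the 8. Its TPM, a level scaled by transcript length and therefore comparable between genes, were 0.102 in Tom- and 0.329 in Tom+ cells of tumor #1 and 0.767 in Tom- and 0.357 in Tom+ cells of tumor #2. All 4 libraries were below 1 TPM, the Tom- values lay on both sides of the Tom+ values, and Fas was left out of the tests because fewer than 2 libraries reached 1 TPM. Among protein-coding genes tested, its level ranked at percentiles from 1.40 to 3.15. The other receptors of the pathway list were also low. Tnfrsf1a, the receptor that recruits TRADD, and Tnfrsf25 were listed at 0 in all 4 libraries, and Tnfrsf1b ranged from 0.909 to 1.08 TPM. Tnfrsf10b, the mouse TRAIL receptor, was under 1 TPM in tumor #1 (0.517 and 0.962) and above it in tumor #2 (1.70 and 1.77). Of the ligands, Fasl and Tnfsf12 were listed at 0 throughout, and Tnf, which signals through Tnfrsf1a, ranged from 0.985 to 2.50 TPM.

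Fadd, the adaptor that links Fas to caspase-8, was at 2.85 TPM in Tom- and 2.52 in Tom+ cells of tumor #1, and at 2.24 in Tom- and 2.11 in Tom+ cells of tumor #2. It was lower in the Tom+ cells of each tumor by a small amount, and the Tom- and Tom+ values overlapped. Tradd, the adaptor of TNF receptor 1, was at 5.50, 5.74, 7.50 and 5.71 TPM in the same order of libraries, so that only Tom- cells of tumor #2 stood above the others. Ripk1, the kinase that joins TRADD at the receptor, was at 7.34, 5.50, 5.08 and 7.91 TPM. Its high values were in Tom- cells of tumor #1 and Tom+ cells of tumor #2, and its groups overlapped in both comparisons. A processed pseudogene on the same strand, Gm17084, shares 511 of the 8344 exonic bases of Ripk1 (6.12%). It was listed at 1.99, 4.14, 1.84 and 4.18 TPM, higher in the Tom+ cells of both tumors, and how reads of the shared bases were divided was not tested. Opposite-strand genes overlap smaller parts of Ripk1 and Casp9, the antisense gene Faddos overlaps 239 of the 3903 exonic bases of Fadd (6.12%), and the sources used here do not give the strand setting of the libraries.

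Cflar, the brake on caspase-8, was at 7.14 TPM in Tom- and 8.004 in Tom+ cells of tumor #1, and at 15.4 in Tom- and 15.2 in Tom+ cells of tumor #2. Both libraries of tumor #2 lay well above both of tumor #1, and the Tom- and Tom+ cells of a tumor were close together. Casp8 itself was the most abundant of the 8, at 27.9 TPM in Tom- and 25.7 in Tom+ cells of tumor #1, and 28.0 in Tom- and 18.45 in Tom+ cells of tumor #2. Here the Tom- libraries were nearly equal and both Tom+ libraries were lower, that of tumor #2 by far the more. Casp9, the initiator caspase of the mitochondrial route, was at 7.49, 4.93 (tumor #1, Tom- and Tom+), 9.60 and 10.8 TPM (tumor #2, Tom- and Tom+). The libraries of tumor #2 were above those of tumor #1, and the Tom+ values lay on both sides of the Tom- values.

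Casp6, an effector caspase that cleaves lamins and caspase-8 itself, was at 0.917 TPM in Tom- and 3.61 in Tom+ cells of tumor #1, and at 7.20 in Tom- and 4.40 in Tom+ cells of tumor #2. Its highest level was further above its lowest, as a ratio, than that of any other tested gene of the 8, the lowest and the highest value both being in Tom- libraries.

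**Figure D1:**
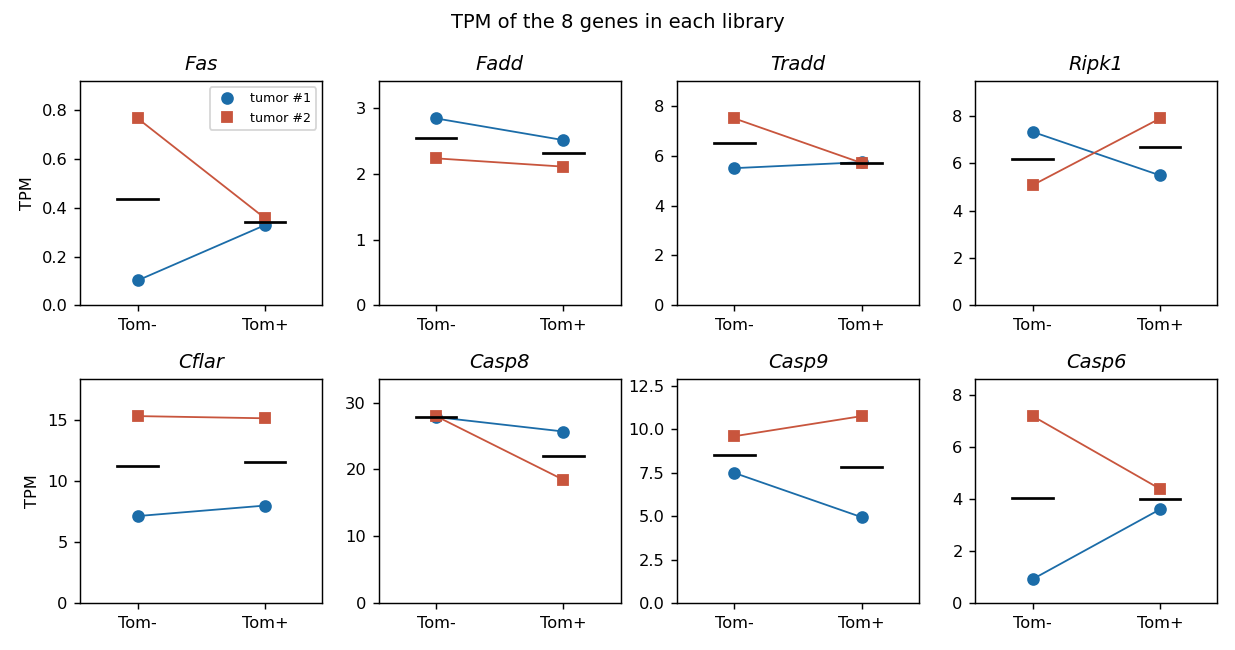
TPM (vertical axis, linear, starting at 0, a separate scale in each panel) of the 8 genes in Tom- and Tom+ cells. Circles are tumor #1, squares tumor #2, lines join the libraries of 1 mouse and black bars are means of 2 libraries; Cflar is split by tumor (7.14 and 8.004 against 15.4 and 15.2 TPM), while both Tom+ values of Casp8 (25.7 and 18.45) are below both Tom- values (27.9 and 28.0).

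By mean TPM over the 4 libraries the order was Casp8 (25.0 ± 4.49, SD, n = 4), Cflar (11.4 ± 4.46), Casp9 (8.20 ± 2.56), Ripk1 (6.46 ± 1.38), Tradd (6.11 ± 0.930), Casp6 (4.03 ± 2.59), Fadd (2.43 ± 0.326) and Fas (0.389 ± 0.277). Casp8 exceeded Cflar, and Fadd exceeded Fas, with ranges that did not overlap. The other 5 neighboring pairs in this order overlapped, and Ripk1 was above Tradd in only 2 of 4 libraries. In each of the 4 libraries Fas was the lowest and Casp8 the highest of the 8. Ripk3, the necroptosis kinase, and Casp2, another initiator caspase, were higher than all 8, at 43.6 to 78.3 and 54.9 to 70.1 TPM.

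Tom+ and Tom- cells of the same mouse were compared to ask whether lymphoma cells with a history of Cre activity differ in these genes. None of the 7 genes tested passed the threshold: in limma's moderated test on log2(TPM + 1), with the tumor as a block, 0 of 7 had an adjusted p-value below 0.05, as was the case for 0% of the 11339 genes tested. At an unadjusted p-value below 0.05 the count was also 0 of 7, against 4.67% of all genes. Only Fadd and Casp8 had the same direction in both tumors, both lower in Tom+ cells, 2 of 7 against a background of 29.5%. None of the 7 was higher in the Tom+ cells of both tumors, where the background was 21.6%. With 2 pairs the smallest p-value of an exact permutation test is 0.5, so single genes were not tested that way. In bulk RNA, fewer cells of a type and less RNA per cell cannot be told apart.

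The largest difference of one direction was that of Casp8. Its mean was 27.9 ± 0.0984 TPM in Tom- and 22.1 ± 5.12 TPM in Tom+ cells (SD, n = 2 each), a log2 difference of -0.34 ± 0.20 (SE; 95% interval -0.96 to 0.27; adjusted p = 0.936 from limma). The difference was -0.11 on this log2 scale in tumor #1 and -0.58 in tumor #2, and the lower Tom+ value came from the library with high Jchain, whose part in it was not tested. Casp8 was the only one of the 7 for which both Tom+ libraries lay below both Tom- libraries (background 9.86%), and 0 of 7 had both above (background 6.42%). For Fadd the log2 difference was -0.09 ± 0.22 (adjusted p = 0.973 from limma).

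In the remaining 5 genes the tumors went in opposite directions. The log2 differences were -0.14 ± 0.23 for Tradd, 0.09 ± 0.32 for Ripk1, 0.06 ± 0.18 for Cflar, -0.18 ± 0.26 for Casp9 and 0.33 ± 0.56 for Casp6 (limma's SE), with adjusted p-values from 0.952 to 0.988. Casp6 was the extreme case, with a log2 difference of 1.27 in tumor #1 and -0.60 in tumor #2. Ripk1 moved by -0.36 and 0.55, and Casp9 by -0.52 and 0.15. The 95% interval was narrowest for Cflar, from -0.50 to 0.63, and widest for Casp6, from -1.40 to 2.06. The median log2 difference of the 7 genes was -0.09, against -0.03 over all genes tested.

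**Figure D2:**
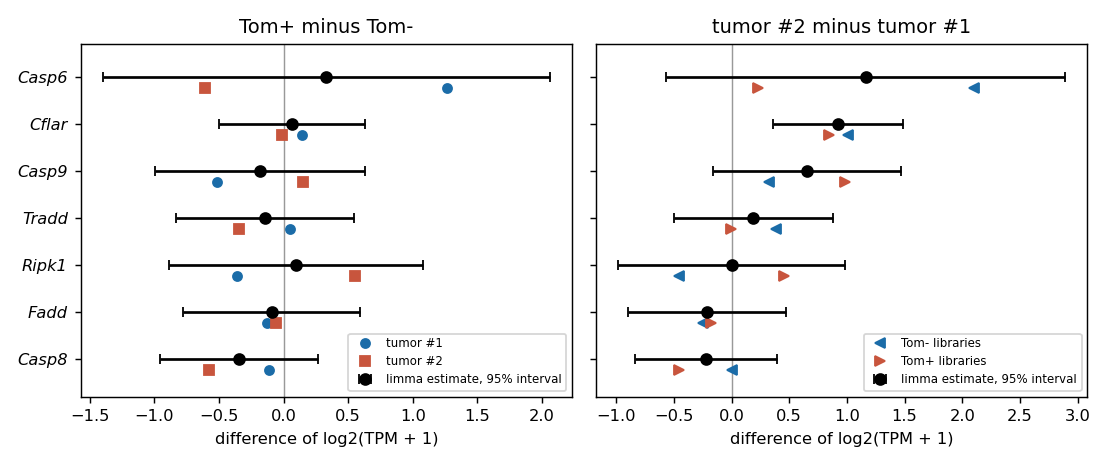
Differences of log2(TPM + 1) for the 7 tested genes, Tom+ minus Tom- on the left and tumor #2 minus tumor #1 on the right. Black points and bars are limma's estimates with their 95% intervals, and colored points below each bar are the difference within each tumor (left) or each sorted fraction (right); every interval on the left includes 0, and Cflar on the right (0.36 to 1.49) does not.

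Between the tumors, Cflar had the difference that was largest against its error. Its mean was 7.57 ± 0.610 TPM in tumor #1 and 15.3 ± 0.127 TPM in tumor #2 (SD over the sorted fractions of 1 mouse). The log2 difference was 0.93 ± 0.18 (SE; 95% interval 0.36 to 1.49; unadjusted p-value 0.0128 and adjusted p-value 0.0757 in limma's test). It was 1.01 higher among Tom- and 0.85 higher among Tom+ libraries on the log2 scale, and 98.8% of its sum of squares lay between the tumors. The median of that share over all genes tested was 72.6%. The adjusted p-value did not pass 0.05, and it ranged from 0.0347, with the tumor as the only term, to 0.187, without Tom- cells of tumor #1. These p-values measure the spread between sorted fractions of 2 mice and say nothing of other mice, and for 2 against 2 libraries the smallest p-value of an exact permutation test is 0.333.

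Of the 7 genes, 0 had an adjusted p-value below 0.05 between the tumors (background 4.33%), and 1, Cflar, had an unadjusted p-value below 0.05, where the background was 36.7%. Both libraries of tumor #2 were above both of tumor #1 for 3 of 7, Cflar, Casp9 and Casp6 (background 44.8%), and below for 1 of 7, Fadd (background 23.7%). Neither share was above that of all genes. Casp9 differed by 0.65 ± 0.26 (adjusted p = 0.185 from limma), Casp6 by 1.16 ± 0.56 (0.237), Fadd by -0.21 ± 0.22 (0.535) and Casp8 by -0.22 ± 0.20 (0.469) on the log2 scale. With 1 library or 1 sorted fraction left out, Casp9 ran from 0.32 (Tom- cells only) to 0.99 (Tom+ cells only) and Casp6 from 0.23 (Tom+ cells only) to 2.10 (Tom- cells only). Without the Tom+ library of tumor #1 Casp9 was at 0.40 and Casp6 at 1.796, and without the Tom- library of tumor #1 Casp6 was at 0.53. Tradd, at 0.19 ± 0.23, and Ripk1, at 0.00036 ± 0.32, took the opposite sign under trimmed-mean scaling (-0.017 and -0.21) and under quantile normalization (-0.21 and -0.38). The median over all tested genes was itself 0.20 higher in tumor #2 in the deposited values, -0.0054 after trimmed-mean scaling and -0.078 after quantile normalization. Relative to that median, Cflar was higher by 0.72, 0.71 and 0.68 under these scalings, Casp6 by 0.96, 0.99 and 0.77, Casp9 by 0.45, 0.45 and 0.37, Casp8 differed by -0.43, -0.45 and -0.37, and Fadd by -0.42, -0.38 and -0.60.

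Several other measures moved with the tumor. The T cell markers summed to 1.17 and 1.49 TPM in tumor #1 against 8.27 and 3.93 in tumor #2, mostly through Cd3d (7.77 and 2.09 TPM in tumor #2). Cd3e was at or under 0.069 TPM in every library, and Trac went the other way, at 0.767 and 1.09 TPM in tumor #1 and listed at 0 in tumor #2. Myeloid markers summed to 2.64 and 4.71 against 13.35 and 7.05 TPM, with Cd68 the highest of them in each library. Trp53, which encodes p53, was at 86.2 and 99.5 TPM in tumor #1 but only 0.087 and 0.145 in tumor #2. Fas and Apaf1 are known p53 target genes. Apaf1 averaged 12.05 TPM in each tumor, a log2 difference of -0.036 ± 0.22 (SE). Fas, under 1 TPM throughout, averaged 0.215 TPM in tumor #1 and 0.562 in tumor #2. The part of the marker levels, of Trp53 and of the mitochondrial share given above in the differences of the 8 genes was not tested. The mouse Myc entry was at 38.1 to 45.6 TPM over the 4 libraries. Reads were mapped to mouse transcripts only, and whether reads of the human MYC transgene were counted there was not tested.

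Ratios within a library do not depend on its scaling, and they put the partners of each complex side by side. Cflar stood at 0.256 of the Casp8 level in Tom- and 0.312 in Tom+ cells of tumor #1, and at 0.549 in Tom- and 0.823 in Tom+ cells of tumor #2. The ratio was below 1 in every library, higher in both libraries of tumor #2, by 1.25 on the log2 scale on average, and higher in the Tom+ cells of both tumors, by 0.28 and 0.585. The Fadd to Casp8 ratio stayed between 0.0799 and 0.115, with overlap between tumors and between sorted fractions. Casp8 was therefore the more abundant transcript of that pair throughout.

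Fas stood at 0.0357, 0.131, 0.343 and 0.169 of the Fadd level in Tom- and then Tom+ cells, first of tumor #1 and then of tumor #2. The ratios of tumor #2 were higher, and they rest on Fas values under 1 TPM. The Ripk1 to Tradd ratio was 1.33, 0.957, 0.678 and 1.39 in the same order and overlapped in both comparisons. Casp9 stood at 0.678 and 0.378 of the level of Apaf1, its scaffold, in tumor #1 and at 1.06 and 0.714 in tumor #2, lower in the Tom+ cells of both tumors by 0.85 and 0.57 on the log2 scale. These ratios are descriptions without a test.

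**Figure D3:**
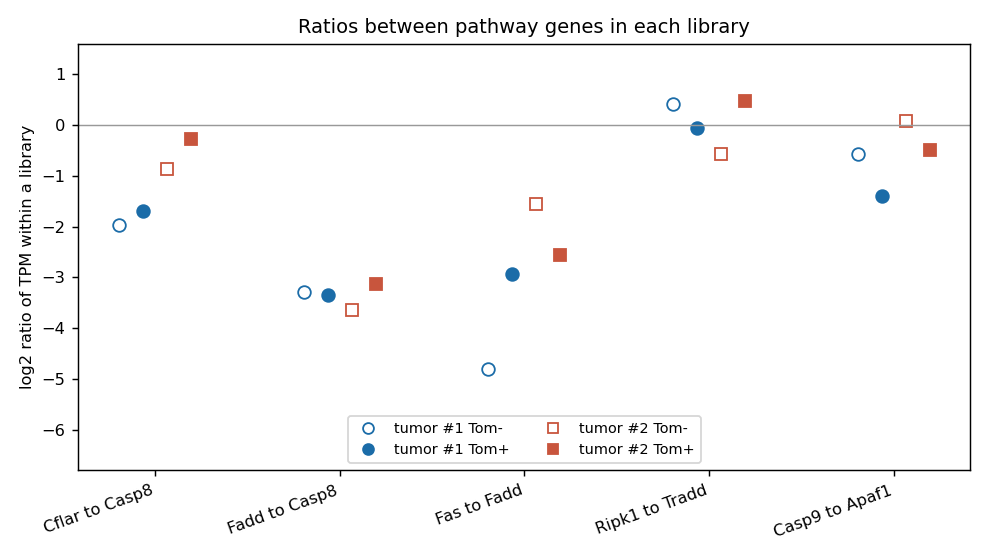
Log2 ratios of TPM between pathway partners within each library (a value of 0 means equal levels). Circles are tumor #1, squares tumor #2, open symbols Tom- and filled symbols Tom+; Cflar to Casp8 is at -1.96 and -1.68 in tumor #1 but -0.87 and -0.28 in tumor #2, while Fadd to Casp8 and Ripk1 to Tradd overlap between the tumors.

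The wider pathway was read from a list of 68 genes that includes the 8, of which 55 could be tested. Between Tom+ and Tom- cells 0 of 55 had an adjusted p-value below 0.05, and 1, Dedd, had an unadjusted p-value below 0.05 (background 4.67%). Of the 55, 5 were higher and 15 were lower in the Tom+ cells of both tumors, beside backgrounds of 21.6% and 29.5%, and 35 went in opposite directions. Dedd, a death effector domain protein, was at 23.5 TPM in Tom- and 12.2 in Tom+ cells of tumor #1 and at 28.7 in Tom- and 17.8 in Tom+ cells of tumor #2. Both Tom+ libraries were below both Tom- libraries. The log2 difference was -0.78 ± 0.17, with an unadjusted p-value of 0.0178 and an adjusted p-value of 0.936 in limma's test. Ltb, a TNF family ligand, was next on the low side (-0.45 ± 0.21). On the high side were Apaf1 (0.45 ± 0.22), Gsdme (0.33 ± 0.22), a gasdermin, and Tnfrsf10b (0.20 ± 0.25), each with an adjusted p-value of 0.936 to 0.947 from limma.

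By role, 0 of 10 tested adaptors and kinases were higher and 2 were lower in the Tom+ cells of both tumors. The shares over all genes tested were 21.6% higher and 29.5% lower, and no role was tested against them. Of the 5 genes grouped as initiator caspases with c-FLIP, 0 were higher and 2, Casp8 and Casp2, were lower. The 7 tested genes of the mitochondrial branch had 2 higher and 0 lower, and the 11 inhibitors of apoptosis and ubiquitin regulators had 0 higher and 2 lower. The 9 tested caspase substrates had 2 higher and 3 lower. The 3 tested ligands and the 4 tested modulators of the receptor complex each had 0 higher and 2 lower, the 1 tested receptor was higher, and of the 5 tested effector and inflammatory caspases 2 were lower.

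**Figure D4:**
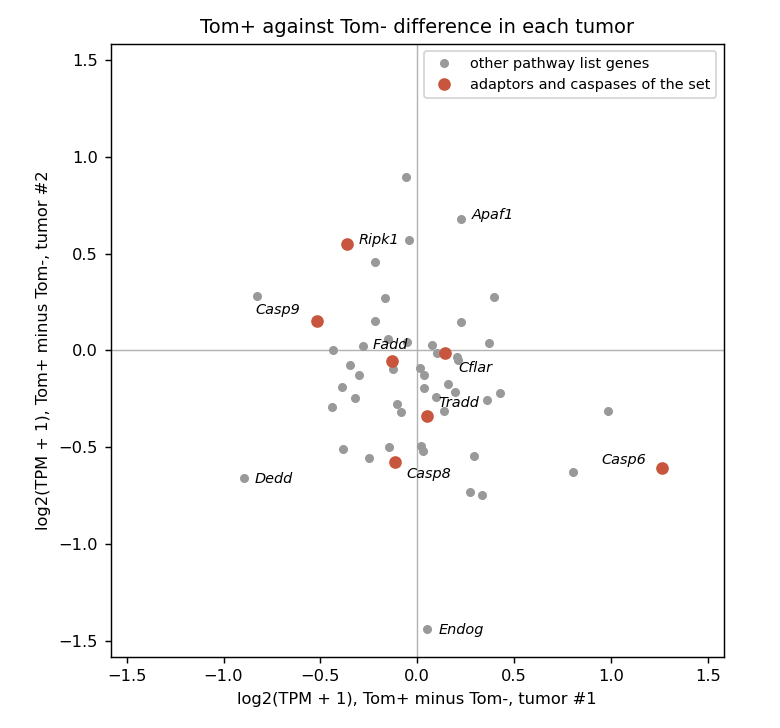
Tom+ minus Tom- difference of log2(TPM + 1) in tumor #1 (horizontal axis) and tumor #2 (vertical axis) for the 55 tested pathway genes, with the 7 tested adaptors, regulators and caspases in red. Points in the lower left part were lower in the Tom+ cells of both tumors, as were Casp8, Fadd and Dedd; Casp6 lies at 1.27 and -0.60.

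Between the tumors, 5 of the 55 pathway genes had an adjusted p-value below 0.05 (background 4.33%) and 19 had an unadjusted p-value below 0.05 (background 36.7%). The 4 of them higher in tumor #2 were the inflammatory caspases Casp4 and Casp1, the ligand Ltb and Birc3, which encodes the ubiquitin ligase cIAP2 of the TNF receptor complex. Casp4 was at 0.184 and 0.149 TPM in tumor #1 against 12.0 and 18.3 in tumor #2 (log2 difference 3.77 ± 0.27), and Casp1 at 0.504 and 0.109 against 15.9 and 12.8 TPM (3.57 ± 0.22). Ltb was at 1.25 and 0.724 against 20.2 and 13.9 TPM (3.18 ± 0.21). Birc3 was at 25.4 and 22.8 TPM in tumor #1 against 149 and 156 in tumor #2 (2.61 ± 0.15). All 4 were higher in both sorted fractions of tumor #2 than in either of tumor #1, where Birc3 was already about as abundant as Casp8.

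These 5 calls depended on the settings. The list had 0 calls with a pseudocount of 0.1, with no filter, with a mean TPM of at least 5 and with quantile normalization. It had 7 with trimmed-mean scaling and 11 with the tumor as the only term, when Cflar was among them. Endog (-1.72 ± 0.47), a mitochondrial nuclease, and Birc5 (-1.42 ± 0.20), the survivin gene, differed toward lower levels in tumor #2. Of the 55, 30 lay above and 13 below in both libraries of tumor #2, beside backgrounds of 44.8% and 23.7%.

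The pathway genes with the pattern most like that of each gene were found by the Euclidean distance between centered log2(TPM + 1) profiles over the 4 libraries. This distance includes the size of the changes, so genes that vary little lie close together whatever their pattern. No background for it was computed. Cflar was nearest to Dffb, the caspase-activated DNase (distance 0.25), and to Tnfrsf10b (0.31). Casp8 was nearest to Lmnb2 (0.25), a lamin, and to Faim (0.35), a Fas apoptosis inhibitor. Fadd was nearest to Aifm1 (0.18) and Casp2 (0.19), Tradd to Rbck1 (0.24) and Casp8ap2 (0.26), Ripk1 to Otulin (0.41) and Apaf1 (0.43), and Casp9 to Gsdmd (0.27) and Xiap (0.30). Casp6 was nearest to Birc6 (0.33), after which the next gene, Birc2, was at 0.81.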

How the data were processed

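B220+ IgM+ Tom- and Tom+ splenocytes of 2 λ-MYC Tom+/ki mice gave 4 libraries. The authors generated 60-base single reads, made FastQ files with CASAVA 1.8, trimmed them with Cutadapt, quantified them with Salmon 1.9 on GRCm38 transcripts and deposited TPM per gene. The authors' test, edgeR on paired samples, needs counts and was not run. The members and lists were chosen with earlier results of these data known. Of the 34866 identifiers, 34582 are in GENCODE M21. The 11339 genes that reached 1 TPM in 2 or more libraries were tested on log2(TPM + 1), where changes of low genes come out too small, with limma 3.58.1 in R 4.3.3 (terms Tom status and tumor, variance trend, prior degrees of freedom 2.21, residual 1, Benjamini-Hochberg adjustment over all genes, two-sided, threshold 0.05). The tumor was a block because its libraries come from 1 mouse; deviations from the group means of the libraries of tumor #1 correlated at 0.626 across genes. Named pathway genes were the 3 with the largest differences in each direction among those of one direction in both tumors (or with tumors apart), those in ratios, and the 2 nearest in pattern. Genes past a threshold and receptors or ligands of the list were named after their values were seen, as were Ripk3 and Casp2. Values of some of these genes and markers are not reported here. The fit was tested on simulated data. Tables and plots used Python 3.11.15, pandas 2.3.3, numpy 2.4.6 and matplotlib 3.10.9.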

Additional observations from a re-analysis of the deposited data

How the results depend on the processing

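For the 7 genes between Tom+ and Tom- cells, none passed the threshold under any setting, and no direction turned under the settings that kept all 4 libraries. In this balanced design, dropping the block or the variance trend, or changing the filter, cannot change the log2 difference of a gene. Only the pseudocount and the scalings could turn a direction, and the median without the block was fixed in advance. The replicate block changed no call: without it the median stayed at -0.09 and 140 instead of 530 genes had an unadjusted p-value below 0.05, and 113 to 256 with 1 library left out. Requiring a mean TPM of 5 or more, the median over the 5 remaining genes was -0.14. Leaving out 1 library or 1 tumor turned the direction in 13 of 42 values. Fits with 1 library left out had no tumor block, so their values mix in the difference between the tumors. The ranges were -0.22 to 0.031 for Fadd, -0.34 to 0.052 for Tradd and -0.36 to 0.55 for Ripk1. They were -0.44 to 0.57 for Cflar, -0.68 to 0.31 for Casp9 and -0.72 to 1.38 for Casp6. Casp8 stayed below 0 (-0.58 to -0.11). Within each tumor, the Cflar difference was 0.15 (tumor #1) and -0.016 (tumor #2). Pathway genes higher in the Tom+ cells of both tumors numbered 5, but 3 with a mean TPM of at least 5 and 8 with no filter, trimmed-mean scaling or quantile normalization.

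Between the tumors, 491 genes passed the threshold, against 2231 with the tumor as the only term, 1 with a pseudocount of 0.1, no filter or quantile normalization, 34 with a mean TPM of at least 5, 275 without the variance trend and 0 with any 1 library left out, where 2705 to 4148 had an unadjusted p-value below 0.05. Cflar alone of the 7 genes passed, in 1 setting, the tumor as the only term. The median over the 7 genes moved from 0.19 to 0.27 with no filter (8 genes), -0.017 after trimmed-mean scaling and -0.21 after quantile normalization, and was 0.23 to 0.32 within 1 sorted fraction. Tradd turned to -0.017 and -0.21 with these scalings, and Ripk1 to -0.0020, -0.21 and -0.38 with a pseudocount of 0.1 and these scalings. When 1 library was left out, the tumor was the only term. With libraries left out, the ranges were -0.0072 to 0.39 for Tradd, -0.45 to 0.46 for Ripk1 and -0.51 to 0.064 for Casp8. Cflar stayed at 0.85 to 1.01 with libraries left out. With all libraries it was at 0.71 after trimmed-mean scaling and 0.60 after quantile normalization. The causes were not tested. Each tumor is 1 mouse and read depth is unknown, so levels under 1 TPM, those of Fas among them, have no stated precision.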
